A study of Mus musculus with 33 samples.

Results

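Collagens are secreted or membrane-bound matrix proteins built from 3 chains wound into a triple helix, and the helix needs a glycine at regular steps along each chain. Fibrillar collagens (Col1a1, Col1a2, Col3a1) form the rope-like fibres that fibroblasts lay down, in brain mainly in the meninges and around larger vessels. Collagen IV chains (Col4a1 to Col4a6) form the sheet of the basement membrane that surrounds every brain capillary and lines the brain surface. Other families decorate fibrils, form short-chain networks, or span the membrane, and some of these are made by neurons. Collagen transcripts were therefore read here beside marker genes of meningeal fibroblasts, vessel cells and choroid plexus.

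The members were all genes whose symbol is Col, digits, the letter a and digits. There were 44 such genes among the 23366 genes counted, and 43 were kept because their CPM (counts scaled to the size of the library), summed over the libraries of a sex, reached 5 in both sexes. Col2a1, the cartilage fibril collagen, did not reach that level in females and was left out. The 43 members comprise 10 fibrillar, 6 basement membrane, 7 beaded filament, 9 fibril-associated, 3 short-chain network, 2 multiplexin and 4 transmembrane genes, 1 anchoring fibril gene (Col7a1) and 1 other. In all, 15158 genes were tested in females and 15293 in males.

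RNA was sequenced from the frontal cortex of C57BL/6 mice at an age of about 1 month. Dams and then their pups had breathed filtered air (controls), aerosol from e-cigarette cartridges holding 13 to 16 mg/mL nicotine, or aerosol from cartridges of the same brand with no nicotine, and only 1 pup of a litter was used. Females comprised 6 air, 5 nicotine and 5 no nicotine libraries, and males 6 air, 6 nicotine and 5 no nicotine libraries. The sexes were sequenced in separate runs, so sex and run cannot be told apart, and groups were compared within a sex. Both exposed groups of a sex were set against the same air libraries.

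Total counts were between 19150562 and 27513174 per female library and between 17845672 and 24787955 per male library. Members held 0.0460 to 0.0633% of the counts in females and 0.0464 to 0.0829% in males, that is 9056 to 20542 counts per library. Cortical glutamatergic neuron markers were present in every library, with a summed level between 2022 and 5964 CPM. Markers of striatal projection neurons were also present (1159 to 5235 CPM), as were those of astrocytes (10110 to 13749 CPM), microglia (996 to 1359 CPM) and blood (5.82 to 27.0 CPM). Only 2 of the 7 listed blood genes were abundant enough to be tested, and nearly all of their sum was Alas2 (5.66 to 25.6 CPM). The female-specific transcript Xist was at 119 to 156 CPM in female libraries and at 0.0402 to 0.253 CPM in 16 male libraries, but at 215 CPM in the library labelled male nicotine 21, which also had 1 Y-linked count where the other male libraries had 2140 to 3247. That library was kept under its label. The log2 fold changes of named members and the edgeR counts of members called that rest on the male nicotine group are given with and without it. Counts from DESeq2 are given only with it. In bulk tissue, fewer cells of a type and less RNA per cell cannot be told apart.

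The repeat that defines the family can be read in the genes themselves. The 3 exons printed here are short repeat-coding exons of the 3 fibrillar chains followed most closely below. Each is 54 bases long and runs 5′ to 3′ on the coding strand of the mm9 assembly. The glycine codon that opens each repeat of 3 codons is in capitals. The first is exon 8 of Col1a1 (chr11:94801218-94801271, plus strand), the second is exon 8 of Col1a2 (chr6:4465481-4465534, plus strand) and the last is exon 6 of Col3a1 (chr1:45382205-45382258, plus strand).
Col1a1: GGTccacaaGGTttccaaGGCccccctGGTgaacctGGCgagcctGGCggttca
Col1a2: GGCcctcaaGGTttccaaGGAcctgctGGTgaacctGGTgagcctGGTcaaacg
Col3a1: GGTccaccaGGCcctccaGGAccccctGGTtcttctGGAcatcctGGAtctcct
Each holds 6 such glycine codons, 1 at every ninth base. The Col1a1 exon has 1 more glycine codon outside that spacing (ggt, in small letters near its end). In Col1a1, 21 of 51 coding exons had this length, against 24 of 52 in Col1a2 and 24 of 51 in Col3a1.

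Per kilobase of exon, the collagen IV pair was the most abundant of the family. In female air libraries the median level was 11.99 CPM per kb for Col4a1 and 10.8 for Col4a2, and in male air libraries 14.5 and 13.1. These genes ranked first and second among the 43 members in all 6 groups. Col25a1, a transmembrane collagen known from neurons, came next in all 6 groups, with 8.596 CPM per kb in female air and 8.48 in male air. Col1a1 and Col1a2 ranked between 4 and 7 and Col3a1 at 8 or 9. Depending on the group, 12 to 14 members had a median of at least 10 CPM and 8 to 11 lay below 1 CPM, where a library holds few reads per gene.

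The name meninges and vessel readout therefore fits only some of the members. Col1a1, Col1a2, Col3a1, Col4a1 and Col4a2 are the classical products of fibroblasts and vessel cells, whereas Col25a1 and Col19a1 are known from neurons. For Col25a1 the female air libraries lay between 67.8 and 89.7 CPM and the male air libraries between 62.5 and 87.2 CPM. In the exposed libraries the range was 57.5 to 105 CPM, and no comparison with air passed the threshold (in males with nicotine the log2 fold change was 0.26, and 0.25 without the library labelled 21).

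Few members differed between groups at an adjusted p under 0.01 (edgeR quasi-likelihood test, Benjamini-Hochberg adjustment over all genes of a sex). In females, 1 member was called with nicotine and 2 without nicotine against air. In males, none was called with nicotine and 4 without nicotine. Over all genes tested, the same comparisons called 4.29%, 12.1%, 0% and 13.6%, so the shares of members called (2.33%, 4.65%, 0% and 9.3%) were not above those of all genes. The median log2 fold change of the members against air was 0.05 and 0.10 in females with and without nicotine, and 0.14 and -0.02 in males, beside medians over all genes of 0.00, 0.01, 0.01 and 0.02.

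**Figure D1:**
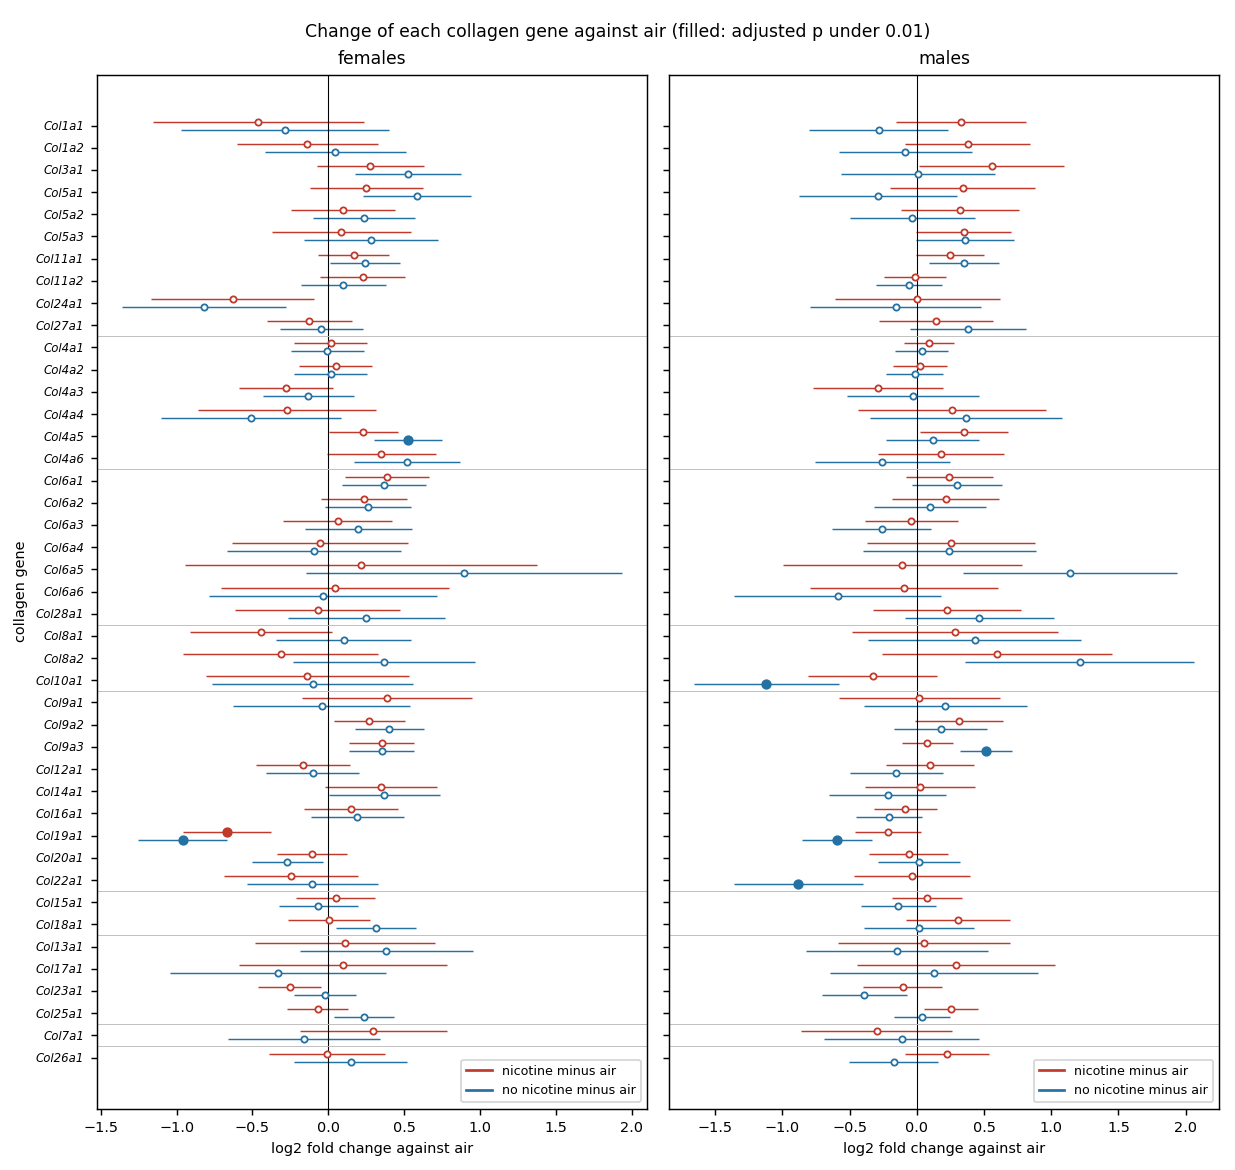
Log2 fold change against air for each of the 43 collagen genes in the 4 comparisons with air (points, with bars for the 95% confidence interval of the edgeR fit), grouped by collagen class; filled points have an adjusted p under 0.01. Filled points are few, with 1 and 2 in the panels of females (with and without nicotine) and 0 and 4 in those of males.

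Between nicotine and no nicotine, 0 members were called in females (0% of all genes) and 0 in males (0.248% of all genes). With edgeR, 6 members in females and 9 in males had an unadjusted p under 0.05 (8.36% and 20.1% of all genes), and the lowest adjusted p was 0.574 and 0.019. DESeq2 called 0 members in females and 2 in males, Col9a3 and Col22a1. For males with nicotine against air, where edgeR called none, 3 members had an unadjusted p under 0.05 (14.4% of all genes), the lowest adjusted p was 0.22, and DESeq2 called 0. Without the library labelled male nicotine 21, edgeR still called 0 members in that comparison and in the comparison of both exposed male groups.

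Col19a1 was lower in 3 of the 4 comparisons with air. It encodes a fibril-associated collagen (mm9 chr1:24268729-24594311, minus strand) that is known in brain from subsets of neurons rather than from meninges. In female air libraries it was at 15.03, 16.3, 18.4, 18.8, 18.99 and 24.8 CPM. In females with nicotine it was at 11.6, 10.3, 15.5, 11.3 and 10.3 CPM, and in females without nicotine at 12.6, 8.59, 8.39, 10.2 and 8.34 CPM. Every no nicotine library lay below every air library, and with nicotine only replicate 3 reached into the air range.

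The fold changes of Col19a1 followed that order. In females the log2 fold change was -0.96 without nicotine (SE 0.14, adjusted p = 0.000841) and -0.67 with nicotine (SE 0.14, adjusted p = 0.00577). The latter call was lost in 8 of 16 fits that each left out 1 female library (air 2, 4, 5 or 6, or nicotine 1, 2, 5 or 6), and the adjusted p over all 16 fits ran from 0.00162 to 0.0201. It was also lost with the replicate number as a block (adjusted p = 0.0338) and with 3 stand-out libraries left out (0.0139). The call without nicotine held in all 16 such fits, at adjusted p up to 0.00349.

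In males, Col19a1 was at a lowest, median and highest level of 16.2, 17.3 and 21.8 CPM in air and 13.6, 15.3 and 18.5 CPM with nicotine. Without nicotine it was at 10.9, 11.5, 11.1, 9.87 and 17.4 CPM, where 17.4 CPM belongs to replicate 7 and the other 4 libraries lay below every air library. The log2 fold change was -0.59 (SE 0.12, adjusted p = 0.00198) without nicotine and -0.21 (SE 0.12, adjusted p = 0.428) with nicotine, where leaving out the library labelled male nicotine 21 gave -0.21 as well (adjusted p = 0.496). The change against air did not differ detectably between the sexes, by 0.44 (male minus female) with nicotine (adjusted p = 0.725, and a difference of 0.45 without library 21) and by 0.36 without nicotine (adjusted p = 0.945).

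**Figure D2:**
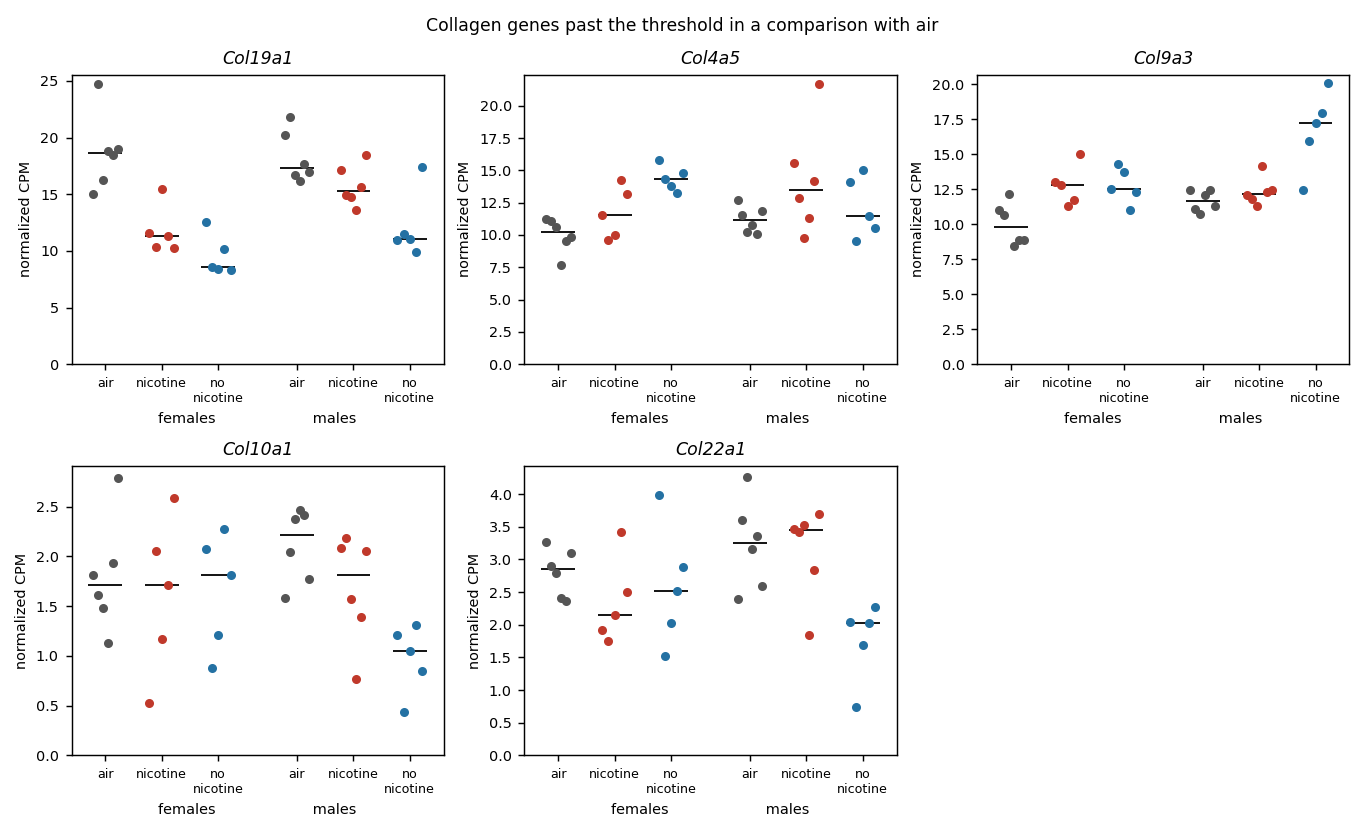
Normalized CPM (linear axis from 0) of the 5 collagen genes called in any comparison, 1 point per library, with a bar for the group median. The median of Col19a1 is lowest in the no nicotine groups of both sexes, that of Col9a3 is highest in males without nicotine, and Col10a1 and Col22a1 in males without nicotine lie below all male air libraries.

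Neuron markers moved in the same comparisons as Col19a1. The summed cortical glutamatergic markers were at 4809 to 5964 CPM in female air libraries, 3280 to 4281 with nicotine and 2218 to 4426 without, and in males at 4425 to 5330 in air, 3346 to 4543 with nicotine and 2022 to 3204 without. Of these 17 marker genes, 3 and 13 were called lower and 1 and 1 higher in females with and without nicotine, and 0 and 13 were called lower and 0 and 1 higher in males. The summed striatal projection neuron markers went the other way, at a median of 1901 CPM in female air against 3104 with and 2733 without nicotine, and 1991 CPM in male air against 2757 and 3407. Of these 13 genes, 5 and 3 were called higher in females and 0 and 5 in males, and none lower. The part of either list in the level of Col19a1 was not tested.

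Col4a5 was higher in females without nicotine. It encodes a basement membrane chain best known from the kidney filter (mm9 chrX:137909928-138123778, plus strand). Female air libraries were at 11.3, 11.1, 10.6, 7.70, 9.54 and 9.86 CPM, nicotine libraries at 11.5, 9.58, 9.98, 14.3 and 13.1 CPM, and no nicotine libraries at 15.8, 14.3, 13.8, 13.3 and 14.8 CPM. All 5 no nicotine libraries lay above all 6 air libraries, while the nicotine libraries overlapped both. The log2 fold change was 0.53 (SE 0.11, adjusted p = 0.00236) without nicotine and 0.23 (SE 0.11, adjusted p = 0.174) with nicotine. The call was lost when female air 3, female air 4 and female no nicotine 3 were left out together (adjusted p = 0.018).

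Its head-to-head neighbour Col4a6, whose start site lies 1309 bases away on the opposite strand, was at 1.81 to 2.66 CPM in female air and 2.93 to 3.91 CPM without nicotine. These groups did not overlap either, but the difference did not pass (log2 fold change 0.52, SE 0.17, adjusted p = 0.0307). In males Col4a5 was at 10.1 to 12.7 CPM in air and 9.51, 10.6, 11.4, 14.1 and 15.1 CPM without nicotine, which overlapped (log2 fold change 0.12, SE 0.16, adjusted p = 0.653). With nicotine it ran from 9.75 to 21.7 CPM, the highest being replicate 22 (log2 fold change 0.35, adjusted p = 0.306, and 0.36 without library 21).

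In all, 2 members lay wholly above and 2 wholly below the air libraries in females without nicotine, where 4.4% and 6.27% of all genes did so. The members below were Col19a1 and Col24a1, a fibrillar collagen at 4 to 16 counts per library in these groups (log2 fold change -0.82, SE 0.26, adjusted p = 0.0267). With nicotine, replicate 3 had 0.629 CPM of Col24a1, more than 2-fold above the group median of 0.309 CPM.

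Col9a3 was higher in males without nicotine. It encodes a chain of collagen IX, a fibril-associated collagen of cartilage (mm9 chr2:180332495-180356894, plus strand). Male air libraries were at a lowest, median and highest level of 10.7, 11.7 and 12.5 CPM and nicotine libraries at 11.3, 12.2 and 14.2 CPM. Without nicotine the libraries were at 12.5, 15.9, 17.3, 17.97 and 20.1 CPM, so only replicate 2 came down to the top of the air range. The log2 fold change was 0.52 (SE 0.09, adjusted p = 0.000582), and the call held in all 17 fits that left out 1 male library.

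In females Col9a3 was at 8.46 to 12.1 CPM in air, at 13.0, 12.8, 11.3, 11.8 and 15 CPM with nicotine and at 12.5, 14.3, 13.8, 11.04 and 12.3 CPM without nicotine. Most exposed libraries were above the air range, but neither difference passed (log2 fold changes 0.35 and 0.35, adjusted p = 0.0303 and 0.0172). Exons of Col9a3 overlap those of Tcfl5 on the opposite strand, and 6.07% of its 50-base windows are also part of that gene, the highest share among members. Whether reads were counted by strand is not given in the sources used here, and without strand the reads of both genes cannot be told apart there. Tcfl5 was at a median of 2.65 CPM in males without nicotine and 2.06 CPM in male air (log2 fold change 0.36, SE 0.17, adjusted p = 0.144).

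The median of the myelin (oligodendrocyte) markers and that of Col9a3 were above air in each comparison with air, but not to matching extents. In females the marker median was 16301 CPM with and 14387 CPM without nicotine, where the Col9a3 log2 fold changes were 0.35 and 0.35. In males with nicotine that of Col9a3 was 0.08. The summed oligodendrocyte markers were at 10227 to 12543 CPM in male air, 10452 to 16081 CPM with nicotine and 14851 to 25312 CPM without nicotine. In females they were at 8895 to 10720 CPM in air, 14441 to 18341 CPM with nicotine and 11900 to 17870 CPM without. Their part in the level of Col9a3 was not tested.

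Col10a1 and Col22a1 were lower in males without nicotine, at low levels. Col10a1 encodes a short-chain network collagen of growth-plate cartilage (mm9 chr10:34109787-34116891, plus strand). It was at 1.59 to 2.46 CPM in male air (median 2.21), at 0.769 to 2.19 CPM with nicotine and at 1.21, 0.434, 1.05, 1.32 and 0.852 CPM without nicotine. The no nicotine libraries held 10 to 26 counts and the air libraries 37 to 57 counts, with no overlap in CPM (log2 fold change -1.12, SE 0.26, adjusted p = 0.00373). The call was lost without male air 38 (adjusted p = 0.01) and with male nicotine 21, male nicotine 22 and male no nicotine 7 left out together (0.0119). An exon of Nt5dc1 overlaps Col10a1 on the opposite strand, and Nt5dc1 had a median of 2.74 CPM against 2.78 CPM in air (log2 fold change -0.02, adjusted p = 0.94).

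Col22a1 encodes a fibril-associated collagen of tissue junctions such as that of muscle and tendon (mm9 chr15:71626225-71864657, minus strand). It was at 2.40 to 4.26 CPM in male air (median 3.26) and at 2.05, 0.738, 1.69, 2.03 and 2.27 CPM without nicotine, on 54 to 84 and 17 to 48 counts. The groups did not overlap (log2 fold change -0.88, SE 0.23, adjusted p = 0.00867), but the call was lost in 12 of 17 fits that left out 1 male library, the library labelled male nicotine 21 included, with adjusted p from 0.00464 to 0.0216 over the 17. It held without air 30, air 39, nicotine 19, nicotine 22 or no nicotine 7. These were the only 2 members whose libraries in males without nicotine all lay below air, as 6.94% of all genes did, and none lay wholly above. In females neither gene differed detectably from air, with log2 fold changes of Col10a1 of -0.14 with and -0.10 without nicotine and of Col22a1 of -0.24 and -0.10.

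The 3 large fibrillar chains, which are well-known products of meningeal fibroblasts, did not pass in any comparison, and the widest departures were those of single libraries. Col1a1 (mm9 chr11:94797538-94814356, plus strand) was at 30.3, 25.2, 30.9, 95.5, 25.7 and 25.2 CPM in female air replicates 1 to 6. It was at 24.2, 19, 25.7, 41.0 and 31.2 CPM in females with nicotine and at 44.2, 25.4, 21.7, 32.0 and 36.2 CPM without. All 3 groups overlapped, and female air 4 stood far above every other female library.

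That library set the sign of the female differences in Col1a1. The log2 fold change was -0.46 with nicotine (95% confidence interval -1.16 to 0.23, adjusted p = 0.393) and -0.29 without (-0.97 to 0.40, adjusted p = 0.569). Without female air 4 it was 0.04 and 0.22. Col1a2 (mm9 chr6:4454814-4491543, plus strand), whose chain joins that of Col1a1 in collagen I, was at 57.2, 53.0, 52.9, 110, 45.0 and 45.0 CPM in the same air libraries, again highest in replicate 4.

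Col3a1 (mm9 chr1:45368383-45406551, plus strand), the chain of collagen III, did not follow. It was at 26.7, 19.9, 23.1, 16.2, 19.03 and 17.2 CPM in female air, where replicate 4 was the lowest of 6. With nicotine it was at 21.8, 17.1, 20.7, 36.7 and 26.4 CPM and without nicotine at 32.2, 26.0, 26.5, 26.2 and 35.4 CPM. Only air replicate 1 reached into the no nicotine range (log2 fold change 0.53, 95% confidence interval 0.18 to 0.87, adjusted p = 0.0277).

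**Figure D3:**
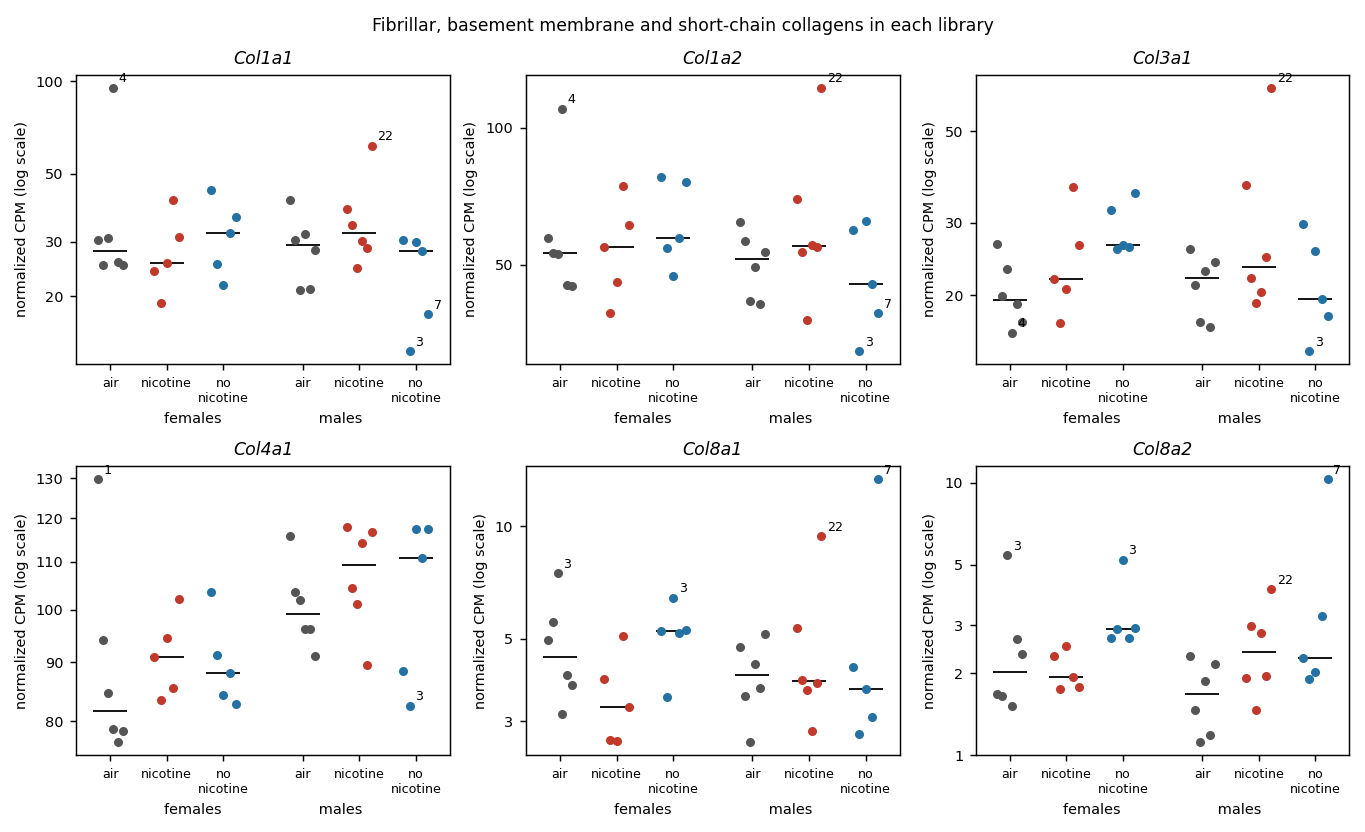
Normalized CPM (log axis) of Col1a1, Col1a2, Col3a1, Col4a1, Col8a1 and Col8a2 in each library by group, with a bar for the group median and replicate numbers beside libraries that stand apart. Female air 4 is high for Col1a1 (95.5 CPM) and Col1a2 (110 CPM) but not for Col3a1 (16.2 CPM), male nicotine 22 is high for all 3 fibrillar chains, and male no nicotine 7 is high for Col8a1 (13.4 CPM) and Col8a2 (10.3 CPM).

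The ratio between the chains shows the same library apart. Col1a2 CPM divided by Col1a1 CPM was 1.15 in female air 4 and 1.5 to 2.44 in the other 32 libraries (median 1.89). Col3a1 divided by Col1a1 was 0.17 in female air 4 and 0.629 to 1.22 in the other 32. Its meningeal marker sum, over 23 genes led by Igf2, was 383 CPM, the lowest of the female air libraries, of which the other 5 were at 524 to 643 CPM. Female air 4 was thus high in collagen I while low in collagen III and in meningeal markers.

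In males, Col1a1 was at 41.3, 30.5, 20.9, 31.8, 21.1 and 28.2 CPM in air, at 38.3, 34.0, 24.6, 30.3, 28.6 and 61.7 CPM with nicotine, and at 30.4, 13.2, 29.99, 28.0 and 17.4 CPM without. The groups overlapped, with nicotine replicate 22 at the top and no nicotine replicate 3 at the bottom. The log2 fold change was 0.33 with nicotine (95% confidence interval -0.16 to 0.81, adjusted p = 0.564), 0.10 without replicate 22 and 0.39 without library 21, and -0.28 without nicotine (-0.80 to 0.23, adjusted p = 0.446).

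Col1a2 in males with nicotine was at 69.7, 53.4, 37.8, 55.2, 54.7 and 123 CPM, and Col3a1 at 37.1, 21.98, 19.1, 20.4, 24.8 and 63.8 CPM. In both genes the highest library was replicate 22, as for Col1a1. Col3a1 was at 16.7 to 26.0 CPM in male air and at 29.8, 14.6, 25.6, 19.5 and 17.8 CPM without nicotine. Its log2 fold change was 0.56 with nicotine (adjusted p = 0.33), 0.21 when replicate 22 was left out, 0.62 when the library labelled male nicotine 21 was left out, and 0.01 without nicotine (adjusted p = 0.986).

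Male nicotine 22 was high for much of the family, though not in every class. It was the highest of its group for 26 of the 43 members and above the group median for 37, with a median distance of 0.27 on the log2 scale. Replicate 15 came near it by that measure, with 35 members above the group median and a distance of 0.21. The fibrillar sum of replicate 22 was 297 CPM, against 115 to 188 CPM in the other 5 male nicotine libraries. Its transmembrane sum was 106 CPM, inside the group range of 78.2 to 119 CPM. Its meningeal marker sum was 1288 CPM, against 382 to 799 CPM in the others, and its mural cell sum, at 854 CPM, was also the highest of the group, while the choroid plexus sums of the group ran only from 33.2 to 46.3 CPM, the latter in this library. For Col13a1, a transmembrane collagen of cell junctions, it had 1.73 CPM, more than 2-fold above the group median of 0.779 CPM. All 23 meningeal markers had counts in every library, and the part of these cells in the collagen levels was not tested.

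**Figure D4:**
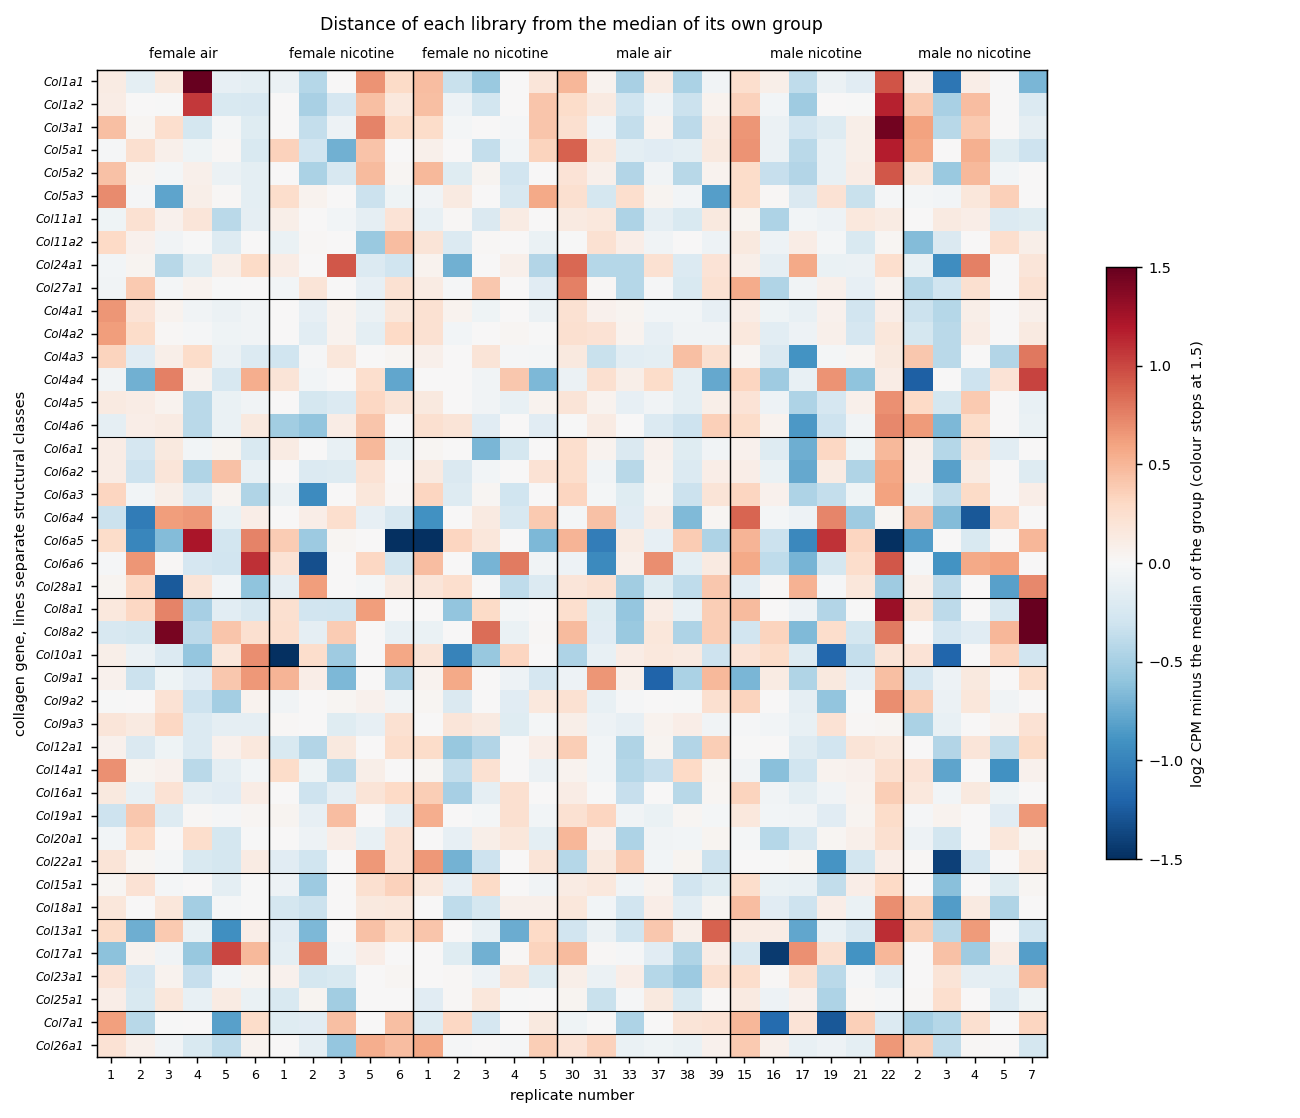
Distance of each library from its group median for each collagen gene (log2 CPM minus the group median, colour scale), with genes grouped by class and libraries by group. Male nicotine 22 is above its group median for 37 of 43 genes, and male no nicotine 3 is the lowest of its group for 25.

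Male nicotine 22 was singled out because it was the highest of its group for 26 of 43 members. A smaller difference from air without it therefore follows from that choice and is given only to show its size. With it, 31 of 43 members were above air (72.1%, beside 52.8% of all genes), with a median log2 fold change of 0.14. Without it, 25 of 43 were above air, with a median of 0.06. For the fibrillar class the counts were 9 of 10 with a median of 0.32 and 8 of 10 with a median of 0.10. The meningeal markers shifted alike, from 23 of 23 above air (median 0.39) to 19 of 23 (median 0.08), and 0 of them were called. Without the library labelled male nicotine 21 in place of 22, 31 of 43 members were above air, with a median of 0.18.

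In the other comparisons with air, the meningeal markers were higher in 19 of 23 genes in females with nicotine (median 0.15), in 21 of 23 in females without nicotine (median 0.35) and in 2 of 23 in males without nicotine (median -0.19). None of these was called. In females without nicotine 7 of 10 fibrillar genes lay above air (median 0.17), and in males without nicotine 4 of 10 (median -0.05). In that male group, replicate 3 was the lowest library for 25 of 43 members, with a median distance of -0.39 and a meningeal sum of 353 CPM.

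**Figure D5:**
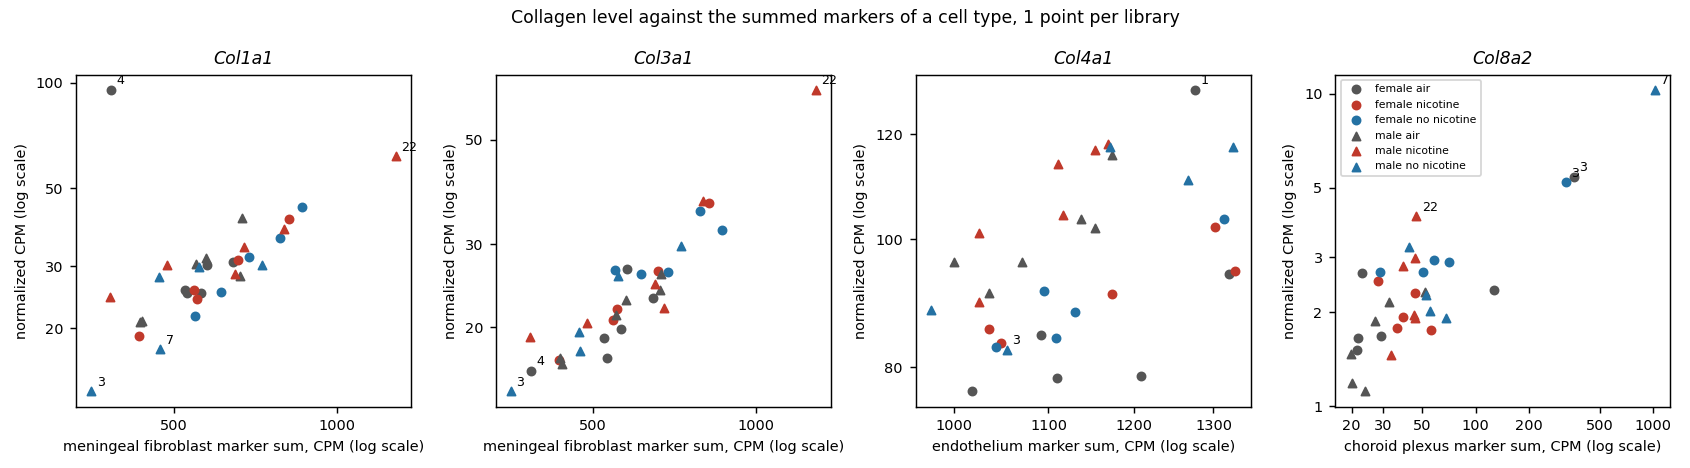
Normalized CPM of Col1a1 and Col3a1 against the summed meningeal fibroblast markers, of Col4a1 against the summed endothelial markers and of Col8a2 against the summed choroid plexus markers, 1 point per library on log axes. Female air 4 is away from the other libraries for Col1a1 (95.5 CPM at a marker sum of 383 CPM), and male no nicotine 7 has both the highest Col8a2 (10.3 CPM) and the highest choroid plexus sum (1024 CPM).

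Over the 16 female and the 17 male libraries, the gene whose log2 level was most like that of Col1a1 among 15105 genes was Col1a2 (Pearson's r = 0.938 and 0.92, and 0.887 and 0.844 without the 2 libraries farthest from the median). By the lower r of the 2 sexes, the next were genes of macrophages and of bone or matrix breakdown: Lyz2, a lysozyme (r = 0.697 and 0.874), Ctsk, the cathepsin of osteoclasts (0.665 and 0.789), Cybb (0.609 and 0.748) and the scavenger receptor Msr1 (0.599 and 0.75). Without the 2 farthest libraries the r for Ctsk was 0.38 and 0.4. These r describe libraries that include the stand-out libraries named above and carry no test.

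The collagen IV pair of the basement membrane did not differ detectably. Col4a1 (mm9 chr8:11198423-11312826, minus strand) was at 130, 94.1, 84.7, 78.8, 76.7 and 78.5 CPM in female air, at 83.5 to 102 CPM with nicotine (median 90.9) and at 82.8 to 104 CPM without (median 88.2). In males it was at 91.1 to 116 CPM in air, 89.6 to 118 CPM with nicotine and 88.5, 82.5, 118, 111 and 117 CPM without. All groups of a sex overlapped, and female air 1 lay above every other female library.

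The intervals for Col4a1 were narrow beside those of Col1a1. The log2 fold change was 0.02 (95% confidence interval -0.22 to 0.25) and -0.01 (-0.24 to 0.23) in females with and without nicotine, and 0.09 (-0.10 to 0.28) and 0.04 (-0.16 to 0.23) in males. Without library 21 the value for males with nicotine was 0.14 (adjusted p = 0.533). For Col4a2 (mm9 chr8:11312805-11449287, plus strand) it was 0.05 and 0.02 in females and 0.02 (0.07 without library 21) and -0.02 in males. The endothelial markers had medians close to 0 as well, at -0.02 and -0.05 in females and 0.02 and -0.03 in males, with 1 of 20 called, higher in males without nicotine.

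Col4a1 and Col4a2 moved together from library to library. The ratio of their CPM lay between 1.02 and 1.27 in all 33 libraries (median 1.14), female air 1 included, where Col4a2 was at 111 CPM. Col4a2 was also the gene most like Col4a1 among 15105 (r = 0.954 in 16 female and 0.935 in 17 male libraries, and 0.922 and 0.899 without the 2 farthest). By the lower r of the 2 sexes it was followed by Nes, which encodes nestin, an intermediate filament protein (r = 0.829 and 0.832, and 0.539 and 0.773 without them). Msn (0.819 and 0.826), AU021092 (0.896 and 0.813) and Lamc1, a laminin chain of basement membranes (0.89 and 0.809), came next. Without the 2 farthest libraries r was 0.776 and 0.752 for Msn, 0.835 and 0.901 for AU021092, and 0.752 and 0.798 for Lamc1. The genes lie head to head on chromosome 8, and their annotated start sites are 21 bases apart, inside overlapping transcripts. The promoter windows of both genes, taken from RefSeq on GRCm38.p6 (35 members have such a window), are shown because they share sequence, and each runs 5′ to 3′ on the strand of its gene from 250 bases before to 50 bases after the start. The 78 bases that the windows share (chr8:11312777-11312854) are in capitals, and the capitals of one are the reverse complement of those of the other. The Col4a1 window is chr8:11312777-11313076 on the minus strand and the Col4a2 window is chr8:11312555-11312854 on the plus strand.
Col4a1: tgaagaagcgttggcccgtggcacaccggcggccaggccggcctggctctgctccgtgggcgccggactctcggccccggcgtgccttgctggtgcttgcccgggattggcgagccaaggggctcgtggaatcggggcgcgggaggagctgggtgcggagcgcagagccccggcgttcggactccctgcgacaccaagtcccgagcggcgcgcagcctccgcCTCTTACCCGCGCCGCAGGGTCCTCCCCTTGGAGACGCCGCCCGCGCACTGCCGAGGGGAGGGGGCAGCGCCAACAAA
Col4a2: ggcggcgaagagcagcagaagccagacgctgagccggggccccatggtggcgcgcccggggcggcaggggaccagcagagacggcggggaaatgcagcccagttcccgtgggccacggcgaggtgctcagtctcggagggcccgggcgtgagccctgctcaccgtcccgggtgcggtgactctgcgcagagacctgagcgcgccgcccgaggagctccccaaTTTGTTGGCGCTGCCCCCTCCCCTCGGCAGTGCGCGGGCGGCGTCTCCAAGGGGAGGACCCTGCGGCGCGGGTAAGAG
The windows hold 74% and 73.7% G or C.

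Col8a1 and Col8a2 are the short-chain network collagens of vessel walls and of the corneal basement membrane, and single libraries decided their differences. Col8a1 was at 4.18, 2.78, 3.66, 3.09 and 13.4 CPM in males without nicotine and at 2.64 to 5.13 CPM in male air. Col8a2 was at 2.28, 1.91, 2.01, 3.24 and 10.3 CPM without nicotine and at 1.11 to 2.32 CPM in air. In both genes replicate 7 lay far above the other libraries.

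Neither gene passed, with a log2 fold change of 0.43 for Col8a1 (SE 0.38, adjusted p = 0.449) and 1.21 for Col8a2 (SE 0.41, adjusted p = 0.0359). Without replicate 7 these were -0.22 and 0.47. The summed choroid plexus markers of that library were at 1024 CPM, of which 839 CPM was Ttr, the transthyretin gene, against 42.3 to 67.8 CPM in the other 4 libraries of the group.

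In females in air and without nicotine, the library with the highest choroid plexus sum also had the highest Col8a2, but not all libraries followed that order. In female air replicates 1 to 6, Col8a2 was at 1.68, 1.65, 5.43, 1.51, 2.66 and 2.36 CPM, and replicates 3 and 6 had choroid plexus sums of 357 and 126 CPM. Replicate 5, with 22.8 CPM, was nevertheless above replicate 6 in Col8a2. In females without nicotine it was at 2.69, 2.89, 5.23, 2.69 and 2.93 CPM, and replicate 3 had a choroid plexus sum of 322 CPM. In contrast, male nicotine 22 had 4.06 CPM of Col8a2 at a sum of 46.3 CPM. The part of choroid plexus in Col8a2 was not tested.

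Col6a1, a beaded filament chain made by fibroblasts and mural cells, was at 10.9 to 14.4 CPM in female air and at 16.9, 15.5, 14.4, 21.8 and 14.5 CPM with nicotine. It was the only member whose nicotine libraries all lay above the female air libraries, as 3.07% of all genes did, but it did not pass (log2 fold change 0.39, SE 0.13, adjusted p = 0.0625). Without nicotine it was at 18.7, 18.4, 11.3, 15.3 and 18.3 CPM, with replicate 3 inside the air range (log2 fold change 0.37, SE 0.13, adjusted p = 0.0493). Of the 7 beaded filament genes, 5 and 5 lay above air in females with and without nicotine, 4 and 5 in males, and 0 were called.

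Other genes of the collagen pathway were read from a list of chain-modifying enzymes, folding and export factors, basement membrane partners, receptors and collagen-degrading enzymes, of which 62 were tested in females and 63 in males. With nicotine 1 was called in females and 0 in males, and without nicotine 6 in females (5 higher, 1 lower) and 7 in males (6 higher, 1 lower). These were 1.61%, 0%, 9.68% and 11.1% of the list, beside the percentages over all genes given above.

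Sparc, a collagen-binding matrix protein that astrocytes and vessel cells also make, was higher without nicotine. It was at 749 to 1346 CPM in females without nicotine and 468 to 722 CPM in female air (log2 fold change 0.87, SE 0.15, adjusted p = 0.000969). In males it was at 839 to 1104 CPM without nicotine and 480 to 678 CPM in air (log2 fold change 0.79, adjusted p = 2.14e-05). The groups did not overlap in either sex, and the female call was lost with 3 stand-out libraries left out (adjusted p = 0.0109). With nicotine Sparc was at 625 to 871 CPM in females (log2 fold change 0.48, adjusted p = 0.0394), which overlapped air, and at 707 to 854 CPM in males (0.43, adjusted p = 0.0416), which did not, and neither passed.

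Ddr1, a collagen receptor kinase that oligodendrocytes also express, was the one list gene called in females with nicotine (118 to 141 CPM against 98.6 to 112 CPM in air, log2 fold change 0.33, adjusted p = 0.00429). It was also called higher without nicotine in females (log2 fold change 0.32, adjusted p = 0.0024) and in males (0.39, adjusted p = 0.000814). The female calls of Ddr1 were less stable than the male one. With nicotine the call was lost with the replicate block (adjusted p = 0.0167), with 3 libraries left out (0.0142) and without female air 6, nicotine 1 or nicotine 2 (up to 0.0156). Without nicotine it was lost with the block (0.0109) and with 3 left out (0.018). Plod1, a lysyl hydroxylase of collagen chains, was called higher without nicotine in both sexes.

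Glt25d2, a collagen galactosyltransferase, was lower in females without nicotine, at 9.44 to 11.9 CPM against 12.3 to 14.4 CPM in air (log2 fold change -0.35, adjusted p = 0.00375). The groups did not overlap, but the call was lost with the replicate block (adjusted p = 0.0168), with 3 libraries left out (0.0448) and without no nicotine replicate 2, 3 or 4 (up to 0.0137).

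The changes against air were also compared between the sexes in 1 fit over 15105 genes. With edgeR, 0 members were called for nicotine and 0 for no nicotine (0% of all genes in both), with 2 and 6 members at an unadjusted p under 0.05 (6.47% and 4.91% of all genes) and lowest adjusted p of 0.725 and 0.945. Without library 21 these fits also called 0 and 0 members, with lowest adjusted p of 0.763 and 0.953. DESeq2 was not run for this difference. A call in 1 sex and not in the other, as for Col4a5, Col9a3, Col10a1 and Col22a1, therefore did not amount to a tested difference between the sexes.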

How the data were processed

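Frontal cortex RNA was sequenced as 50-cycle single reads. Reads were mapped by the authors to the mm9 transcriptome with Bowtie1, PCR duplicates were removed with Samtools, and reads per gene were counted with HTSeq. The raw counts per gene, 1 table per sex, were deposited by the authors and used here. Their strand setting is not given in the sources used here. Of 34 columns, 33 matched a labelled sample and 1 was not used. Normalized counts that were also deposited were not used.

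Groups followed the sample labels. Genes with a CPM sum of at least 5 in a sex were scaled by TMM factors and tested by quasi-likelihood F-tests in edgeR 4.0.16 (R 4.3.3), with the 3 groups of a sex in 1 fit and no covariate. The p-values were adjusted over all genes of that sex by the Benjamini-Hochberg procedure, and calls used a threshold of 0.01. Levels are normalized CPM, and log2 levels carry a prior count of 1. Members, marker lists and pathway lists were chosen with earlier results of these data known. Named genes were Col1a1, Col1a2, Col3a1, Col4a1, Col4a2, all members called in a comparison, members with a library at least 2-fold from its group median that also passed Dixon's criterion, the 3 leading pathway genes by p per comparison with air, and the 5 genes most like Col1a1 and Col4a1. Col25a1, Col6a1, Col4a6, Plod1, Tcfl5 and Nt5dc1 were named after their values were seen. One gene that this rule names is not reported here. Exons, positions and overlaps came from the mm9 annotation.

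Alternatives were DESeq2 1.42.0, its size factors, upper quartile normalization, no filter and a CPM sum of 20, a fit of only 2 groups, leaving out each library, a replicate block in females, and 3 libraries of a sex left out together. The fits were tested on simulated data. Replicate numbers were shared by groups in females but do not pair the samples: 14 same-number pairs had correlations of -0.273 to 0.266, and 4 were over 0.1. No pair of libraries agreed within sampling noise.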

Additional observations from a re-analysis of the deposited data

Results flagged for a closer look

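In each group of 5 or 6 libraries, the gap between the most extreme library and its nearest neighbour was set against the range of the group (Dixon's 95% critical value). Of 258 gene and group pairs, 19 exceeded it (7.36%), where chance gives about 1 in 20. The values are normalized CPM, and no explanation was weighed for any of them.

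In female air 4 this held for Col1a1 (95.5 CPM), for Col1a2 (110 CPM) and, as the lowest library, for Col18a1 (5.70 CPM), the multiplexin of vessel basement membranes. In female air 1 it held for Col4a1 (130 CPM), Col5a2 (7.67 CPM) and Col14a1 (2.54 CPM), in female air 2 for Col27a1 (2.06 CPM) and in female air 3 for Col8a2 (5.43 CPM).

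Among exposed females, replicate 2 with nicotine was apart for Col17a1 (0.566 CPM), and replicate 3 for Col19a1 (15.5 CPM) and Col24a1 (0.629 CPM). Without nicotine, replicate 1 was apart for Col4a2 (91.5 CPM) and replicate 3 for Col8a2 (5.23 CPM).

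In males, air replicate 30 was apart for Col5a1 (6.35 CPM), nicotine replicate 22 for Col1a1 (61.7 CPM) and Col13a1 (1.73 CPM), and no nicotine replicate 7 for Col19a1 (17.4 CPM), Col8a1 (13.4 CPM) and Col8a2 (10.3 CPM). In 7 of the 19 cases the library was at least 2-fold from its group median.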

How the results depend on the processing

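The count of members called changed with the processing in several comparisons. In females with nicotine it was 1, but 0 with the replicate block (136 genes called over the whole table, against 651), 0 with 3 libraries left out (359 genes) and 0 in 8 of 16 fits that left out 1 library, so that these ran from 0 to 1. DESeq2 called 1319 genes there and 1 member. In females without nicotine it was 2, but 5 with DESeq2 (2591 genes, against 1829), 1 with 3 libraries left out (349 genes) and 2 to 4 when 1 library was left out (4 without air 3). With the replicate block it stayed at 2 (736 genes). In males without nicotine it was 4, and 2 to 4 when 1 library was left out (2 without air 38). Over those 17 fits Col22a1 lost its call in 12 and Col10a1 in 1. Between both exposed male groups it was 0, but 2 with DESeq2 (458 genes, against 38) and 0 to 1 when 1 library was left out. The cause of these changes was not tested, and fewer libraries or residual degrees of freedom enter the fits that leave libraries out or carry the block.

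Among single genes, Col19a1 in females with nicotine lost its call with the block (adjusted p = 0.0338) and with 3 libraries left out (0.0139), Col4a5 in females without nicotine with 3 left out (0.018), and Col10a1 in males without nicotine when air 38 was left out (0.01) and with 3 left out (0.0119). Col22a1 in males without nicotine lost it in the fit of only 2 groups (0.0146). Among pathway genes, Ddr1 with and without nicotine and Glt25d2 in females lost theirs with the block and with 3 left out, and Sparc in females with 3 left out, as given above. The Col19a1 calls without nicotine in both sexes and the Col9a3 call in males held in every setting run. The set of 3 libraries was chosen after their values were seen.

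Some log2 fold changes that had not passed changed sign. For Col4a1 in females without nicotine it was 0.0085 with upper quartile normalization, 0.00066 with no filter and 0.0093 with the replicate block. With 3 libraries left out, females with nicotine had 0.089 for Col1a1, 0.14 for Col1a2, -0.053 for Col4a1 and -0.024 for Col4a2, females without nicotine 0.38 for Col1a1 and -0.045 for Col4a2, and males without nicotine -0.014 for Col4a1 and -0.22 for Col8a1. Leaving out 1 library gave ranges of -0.63 to 0.042 and -0.43 to 0.22 for Col1a1 in females with and without nicotine, and of -0.27 to 0.12 and -0.045 to 0.31 for Col1a2. For Col4a1 the ranges were -0.029 to 0.15, -0.061 to 0.13 and, in males without nicotine, -0.017 to 0.11. For Col4a2 they were -0.032 to 0.16 and -0.034 to 0.13 in females and -0.013 to 0.070 and -0.071 to 0.056 in males. In males without nicotine, Col1a2 ran from -0.20 to 0.028, Col3a1 from -0.14 to 0.12 and Col8a1 from -0.22 to 0.59.

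No paired analysis was possible in males because their groups share no replicate numbers. No scaling moved the median of all genes by 0.1 or more on the log2 scale. Members below 1 CPM rest on few counts, so small differences in them were not detectable at this depth.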

Other observations

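Genes that set 3 libraries apart from the others of their sex were listed after their values were seen. In female air 4, the library with high Col1a1 and Col1a2, Acp5, the acid phosphatase of osteoclasts, was at 4.002 CPM and at most at 0.413 CPM in the other 15 female libraries. S100a9, a calcium-binding protein of neutrophils, was at 3.44 CPM against at most 0.489 CPM, and Slc6a3, the dopamine transporter gene, at 9.82 CPM against at most 1.69 CPM. In male nicotine 22, Ogn, a small matrix proteoglycan, was at 41.3 CPM against at most 18.6 CPM in the other 16 male libraries, and Eln, which encodes elastin, at 132 CPM against at most 63.5 CPM. In male no nicotine 7, Ttr was at 839 CPM against at most 19.4 CPM.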
